A study of Glycine max with 20 samples.

Results

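The last weeks of seed filling were followed in soybean (Glycine max) by setting whole developing seeds collected at 50 days after flowering (DAF) against seeds collected at 35 DAF. Of the 20 RNA-seq libraries of the series, which cover 5 stages, the 8 libraries of these stages were used: 2 of cgy-2-NIL and 2 of DN47 at 50 DAF, and 2 of cgy-2-NIL and 2 of DN47 at 35 DAF. They were chosen by their age and line labels alone, the line was held as a covariate, and all genes of the count table entered. DN47 (Dongnong 47) is the recurrent parent and makes every β-conglycinin subunit, whereas cgy-2-NIL is its near-isogenic line that carries the cgy-2 allele on a single introgressed segment of chromosome 20 and lacks the α-subunit. Plants of both lines grew in the field in 1 summer, seeds of a given age were pooled with cotyledon and seed coat together, and the 2 libraries of a group came from separate biological samples. A change can therefore reflect the embryo, the seed coat or their proportions, and fewer cells of a type and less RNA per cell cannot be told apart.

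Soybean seeds fill by accumulating storage proteins in the cotyledons. The main ones are the 11S globulin glycinin, whose subunits are encoded by the Gy genes, and the 7S globulin β-conglycinin, a trimer of α-, α′- and β-subunits. Both belong to the cupin superfamily, named after its barrel-shaped fold, and both are made as precursors that are delivered to protein storage vacuoles. Their genes are switched on during filling and silenced as the seed dries, under transcription factors that include the NF-Y complex. Gibberellin signalling, in which DELLA proteins of the GRAS family act as repressors, is low in late maturation, before germination.

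The 8 libraries held between 18492047 and 26460218 counts. The first principal component of their log2 library-scaled counts took 72% of the variance and separated the stages. Replicate 2 of cgy-2-NIL at 50 DAF stood apart, with a score of 154 on this component against 86 to 108 in the other 3 libraries of 50 DAF, and several results are also given without it. As a check of the line labels, the α-subunit gene GLYMA20G28660 had 3 and 5 counts in cgy-2-NIL and 1459 and 1204 in DN47 at 50 DAF, against 5 and 8 in cgy-2-NIL and 3825 and 3705 in DN47 at 35 DAF. The cupin genes, the markers of cotyledon storage tissue, took 20.2 to 30.1% of all counts at 50 DAF and 14.9 to 22.9% at 35 DAF. The 14.9% was that of replicate 1 of cgy-2-NIL, against 20.4 to 22.9% in the other libraries of 35 DAF. Ranges below with 1 library left out include its removal. Seed coat markers were not checked because no identifier was annotated as one. GLYMA09G02600 had been planned as a seed coat peroxidase marker, but the study's tables annotate it only as a haem peroxidase. Its values are given below with the interaction of line and stage.

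By 2 of 3 measures the counts were held by fewer genes at 50 DAF than at 35 DAF. All 3 were chosen after values had been seen, and the p-values below do not allow for that choice. The adjustment runs over values picked in the same way, so it does not correct for it either. The first 50 percent of the counts, taken from the most abundant gene down, lay in 36 and 81 genes in cgy-2-NIL and 26 and 52 genes in DN47 at 50 DAF, against 770 and 293 in cgy-2-NIL and 206 and 342 in DN47 at 35 DAF. The 4 libraries of 50 DAF all lay below the 4 of 35 DAF (two-sided exact permutation test, p = 0.0286, the smallest that 70 splits of 8 libraries can give, and 0.0429 after adjustment over the 9 shares, ratios and gene numbers computed). Unlike the gene tests, these exact tests did not hold the line apart. Splits within each line are fewer, so their smallest possible p is larger, and they were not run. With 1 library left out the splits are also fewer, so p moves in coarser steps. Leaving out any 1 of the 4 libraries of 50 DAF, the one that stood apart included, gave p = 0.0571 by the same exact test. Genes with at least 10 counts numbered 31592 and 32010 in cgy-2-NIL and 30200 and 31261 in DN47 at 50 DAF, against 34658 and 33925 in cgy-2-NIL and 32672 and 33104 in DN47 at 35 DAF, again without overlap (exact permutation test, p = 0.0286, adjusted 0.0429, and p = 0.0571 without replicate 1 of DN47 at 50 DAF). The third measure, the share of counts of the 10 most abundant genes, overlapped between the stages, with 28.4 to 38.7% at 50 DAF and 21.3 to 30.9% at 35 DAF (exact permutation test, p = 0.0857, adjusted 0.0964, and p = 0.0286 without replicate 2 of cgy-2-NIL at 50 DAF).

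Of 35182 genes tested, 18405 (52.3%) differed between 50 and 35 DAF at an adjusted p below 0.05 (edgeR's quasi-likelihood test, Benjamini-Hochberg adjustment over all genes), 9090 (25.8%) of them higher and 9315 (26.5%) lower at 50 DAF. With a change of more than 2-fold as well, 3708 (10.5%) were higher and 5163 (14.7%) lower, and beyond 4-fold the counts were 1265 and 2336. The fitted log2 fold changes ran from -2.42 at the 5th percentile to 1.69 at the 95th percentile, with a median of 0.01. The near balance of both directions rests on the scaling between libraries. When only the total counts were used, the median of all genes moved to -0.43 and the calls became 3648 higher and 16107 lower. Changes below are relative to the trimmed-mean (TMM) scaling, and levels are normalised RPKM, the deposited RPKM rescaled by the same factors. Without the library that stood apart, 8586 genes were higher and 8985 lower.

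**Figure D1:**
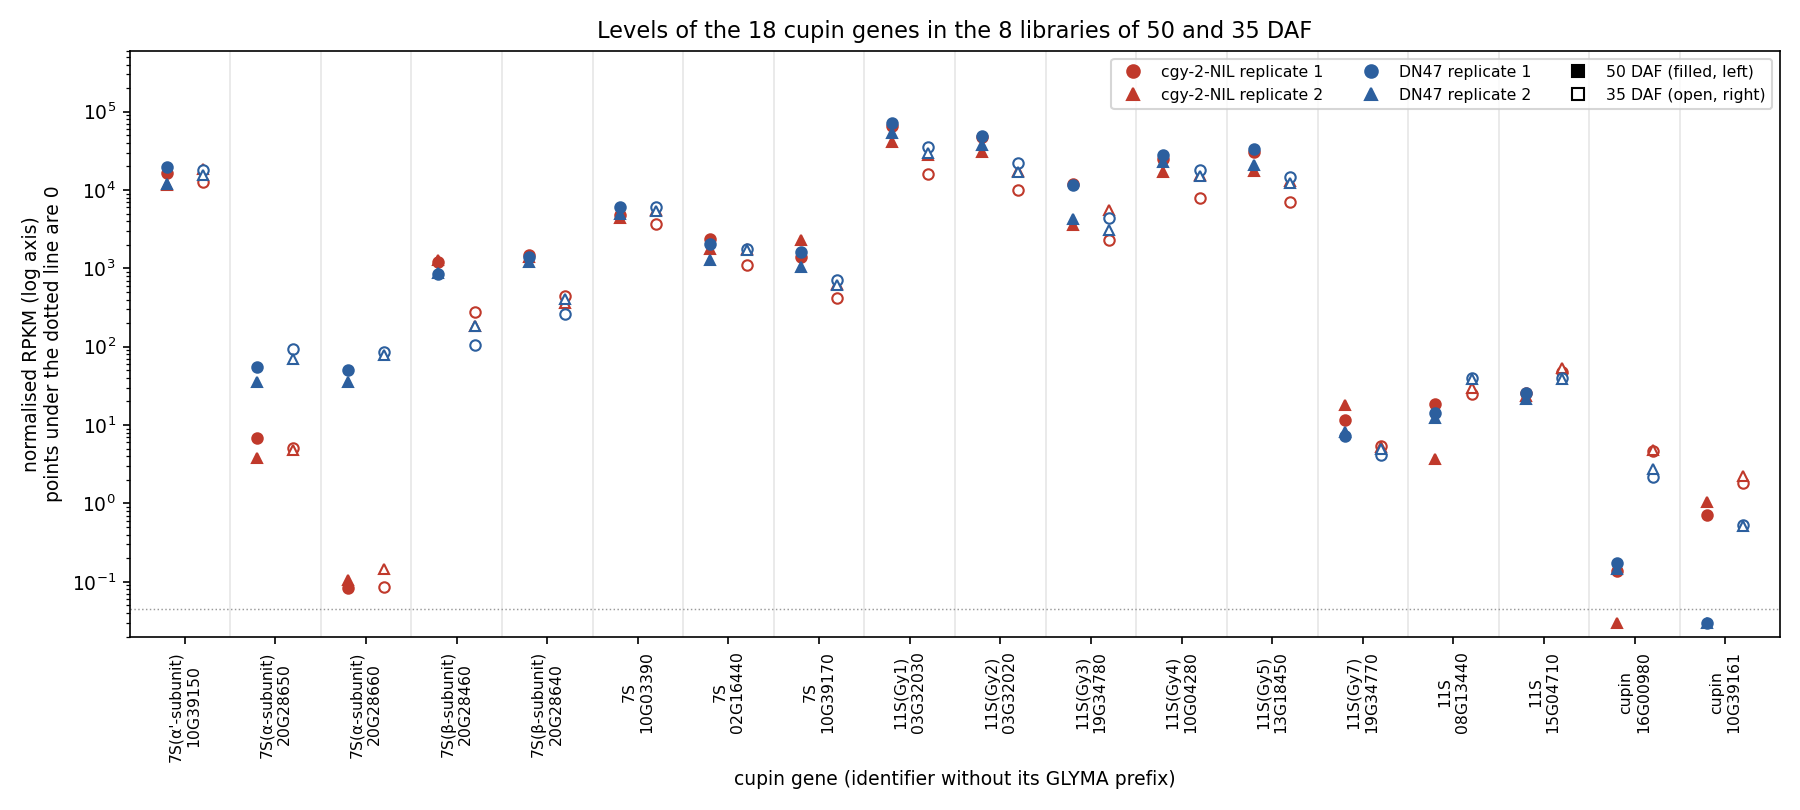
Normalised RPKM (log axis) of the 18 cupin genes in each of the 8 libraries, filled symbols for 50 DAF on the left of each column and open symbols for 35 DAF on the right, with cgy-2-NIL in red and DN47 in blue. The 2 β-subunit genes lie wholly above their levels of 35 DAF, the α′-subunit gene overlaps, and the 2 α-subunit genes are separated by line.

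The glycinin genes, which encode the 11S storage globulin, mostly rose at 50 DAF. Of the 18 cupin genes of the study, all of which were tested, 8 were higher and 5 lower at 50 DAF, or 7 and 8 with total counts alone (against 25.8% and 26.5% of all genes), and their median log2 fold change was 0.47, against 0.01 over all genes. The stages did not overlap for 7 that lay higher and 3 that lay lower at 50 DAF, as for 21.4% and 22.5% of all genes. The study had listed these genes, and the transcription factors below, for differing between the lines in these same libraries, so neither list was drawn independently of the data. Among the 6 glycinin genes 5 rose and 1 was not called, with a median log2 fold change of 1.13. Gy1 (GLYMA03G32030), the most abundant of them at both stages, had normalised RPKM values of 66153 and 41129 in cgy-2-NIL and 71915 and 53788 in DN47 at 50 DAF, against 15840.5 and 27950.4 in cgy-2-NIL and 35329 and 29741 in DN47 at 35 DAF. At these TMM-scaled levels every library of 50 DAF was above every library of 35 DAF, with a log2 fold change of 1.12 ± 0.26 (SE), adjusted p = 0.00625. Gy2 (GLYMA03G32020) had 46935 and 30866 in cgy-2-NIL and 49676 and 37712 in DN47 at 50 DAF, against 10133 and 17271 in cgy-2-NIL and 21926 and 17159 in DN47 at 35 DAF, also without overlap. Its log2 fold change of 1.33 ± 0.25 (SE), adjusted p = 0.00184, was the largest of the 6 glycinin genes. Gy5 (GLYMA13G18450) rose by a similar factor, with a log2 fold change of 1.15 ± 0.28 (SE), adjusted p = 0.00722. Its levels were 25695 ± 7549 at 50 DAF and 11706 ± 3289.9 at 35 DAF (SD, n = 4 each). Gy7 (GLYMA19G34770) also rose without overlap, but at a level far below the others, at 11.4 ± 4.95 at 50 DAF and 4.94 ± 0.573 at 35 DAF (SD, n = 4 each), with a log2 fold change of 1.14 ± 0.18 (SE), adjusted p = 0.00079.

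The remaining glycinin genes changed less clearly. Gy4 (GLYMA10G04280) had 24611 and 16903 in cgy-2-NIL and 28374 and 22845 in DN47 at 50 DAF, against 8032 and 15762 in cgy-2-NIL and 18045 and 15088 in DN47 at 35 DAF, and its log2 fold change was 0.72 ± 0.25 (SE), adjusted p = 0.0385. This call was lost with total counts alone (log2 fold change 0.28, adjusted p = 0.245), with upper-quartile scaling (adjusted p = 0.0513), in the fit to all 20 libraries (adjusted p = 0.217), and without any 1 of 5 libraries (cgy-2-NIL 35 DAF replicate 1, cgy-2-NIL 50 DAF replicate 1, DN47 35 DAF replicate 1, DN47 35 DAF replicate 2, DN47 50 DAF replicate 1, with adjusted p between 0.0673 and 0.111). Gy3 (GLYMA19G34780) varied between replicates within each line at 50 DAF, with 12083 and 3571 in cgy-2-NIL and 11685 and 4289 in DN47 at 50 DAF, against 2299.6 and 5597 in cgy-2-NIL and 4457 and 3061 in DN47 at 35 DAF. Its log2 fold change of 1.04 ± 0.47 (SE), adjusted p = 0.0969, did not pass, and became 1.30 with an adjusted p of 0.0457 without the library that stood apart. Reads of the near-identical Gy1 and Gy2 genes, of the β-subunit pair, the α-subunit pair and the DELLA pair below could be split between the copies in a way the methods do not state, so values of single members of these pairs are uncertain.

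Of the 5 subunit genes of β-conglycinin, the 7S globulin, 2 rose, 1 fell and 2 were not called, with a median log2 fold change of -0.13, beside 25.8% higher and 26.5% lower over all genes. Both genes of the β-subunit, the subunit without the extension that the α- and α′-subunits carry, rose. GLYMA20G28460 had normalised RPKM values of 1201 and 1267 in cgy-2-NIL and 848 and 864 in DN47 at 50 DAF, against 279.6 and 184 in cgy-2-NIL and 105 and 184 in DN47 at 35 DAF. The stages did not overlap and the log2 fold change was 2.49 ± 0.20 (SE), adjusted p = 1.99e-05, beside 1.90 ± 0.17 (SE) for the second β-subunit gene, GLYMA20G28640 (adjusted p = 3.38e-05). That gene had 1469 and 1405 in cgy-2-NIL and 1407 and 1211 in DN47 at 50 DAF, against 444 and 360.2 in cgy-2-NIL and 261 and 407 in DN47 at 35 DAF. Within the lines the rise of GLYMA20G28460 was 2.41 in cgy-2-NIL (adjusted p = 0.000264) and 2.57 in DN47 (adjusted p = 0.00045).

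In contrast, the α′-subunit gene GLYMA10G39150, the most abundant 7S gene at either stage, had 16281 and 11575 in cgy-2-NIL and 19535 and 11852 in DN47 at 50 DAF, against 12497 and 18830.0 in cgy-2-NIL and 17919 and 15387 in DN47 at 35 DAF. The stages overlapped and the log2 fold change of -0.13 ± 0.24 (SE), adjusted p = 0.678, was not called with the main scaling. With total counts alone it was -0.58 with an adjusted p of 0.0208, the same direction as in the deposited RPKM, which averaged 12536 at 50 DAF and 18681 at 35 DAF. The α-subunit gene GLYMA20G28660 could be compared only in DN47, since the cgy-2-NIL libraries held few of its reads. GLYMA20G28660 had 50.8 and 35 normalised RPKM in DN47 at 50 DAF, against 86.1 and 79.3 in DN47 at 35 DAF, a log2 fold change of -0.95 ± 0.18 (SE), adjusted p = 0.0042. Over both lines the value was -0.88 ± 0.19 (SE), adjusted p = 0.00394, a call that the fit to all 20 libraries did not keep (adjusted p = 0.153). The second gene, GLYMA20G28650, had 55 and 35.7 in DN47 at 50 DAF, against 93.5 and 70.5 in DN47 at 35 DAF, and its change in DN47 of -0.85 ± 0.29 (SE), adjusted p = 0.0595, did not pass. This gene held at least 10 counts in every library of both lines. Over both lines its log2 fold change of -0.41, adjusted p = 0.223, did not pass either. With total counts alone that value was -0.86, adjusted p = 0.00953.

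Among 3 further 7S genes, GLYMA10G39170 rose, with 1379.6 and 2337 in cgy-2-NIL and 1614 and 1040.1 in DN47 at 50 DAF, against 416 and 636 in cgy-2-NIL and 712 and 620.2 in DN47 at 35 DAF and a log2 fold change of 1.41 ± 0.26 (SE), adjusted p = 0.002. GLYMA10G03390 and GLYMA02G16440 were abundant and were not called, at log2 fold changes of -0.03 ± 0.18 (SE) and 0.22 ± 0.23 (SE). With total counts alone GLYMA10G03390 was called lower (-0.47, adjusted p = 0.0197), and GLYMA02G16440 changed sign (-0.23, adjusted p = 0.328). Both further 11S genes fell without overlap. GLYMA15G04710 averaged 24.1 ± 1.84 at 50 DAF and 45.4 ± 7.11 at 35 DAF (SD, n = 4 each), a log2 fold change of -0.90 ± 0.11 (SE), adjusted p = 0.000162. GLYMA08G13440 had 18.6 and 3.73 in cgy-2-NIL and 14.4 and 12.3 in DN47 at 50 DAF, against 24.9 and 29.7 in cgy-2-NIL and 39.9 and 38.5 in DN47 at 35 DAF, and its log2 fold change of -1.43 ± 0.40 (SE), adjusted p = 0.0189, missed the threshold when low counts were not filtered (adjusted p = 0.0517).

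Both remaining cupin genes were little expressed at either stage and fell. GLYMA16G00980 had 3 and 0 counts in cgy-2-NIL and 3 and 3 in DN47 at 50 DAF, against 166 and 159 in cgy-2-NIL and 59 and 78 in DN47 at 35 DAF. Summed over each stage and scaled by library size, its reads were 36.8-fold fewer at 50 DAF (exact 95% interval of the counting error 19.2 to 81), and the fitted log2 fold change was -5.05 ± 0.62 (SE), adjusted p = 3.89e-05. GLYMA10G39161 had 13 and 25 counts in cgy-2-NIL and 0 and 0 in DN47 at 50 DAF, against 54 and 61 in cgy-2-NIL and 12 and 12 in DN47 at 35 DAF, so that the stages overlapped between the lines but not within either line. Its log2 fold change over both lines was -1.73 ± 0.52 (SE), adjusted p = 0.0164. Fitted values of genes this close to 0 depend on the small count that the fit adds, and intervals of counts cover counting error only.

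**Figure D2:**
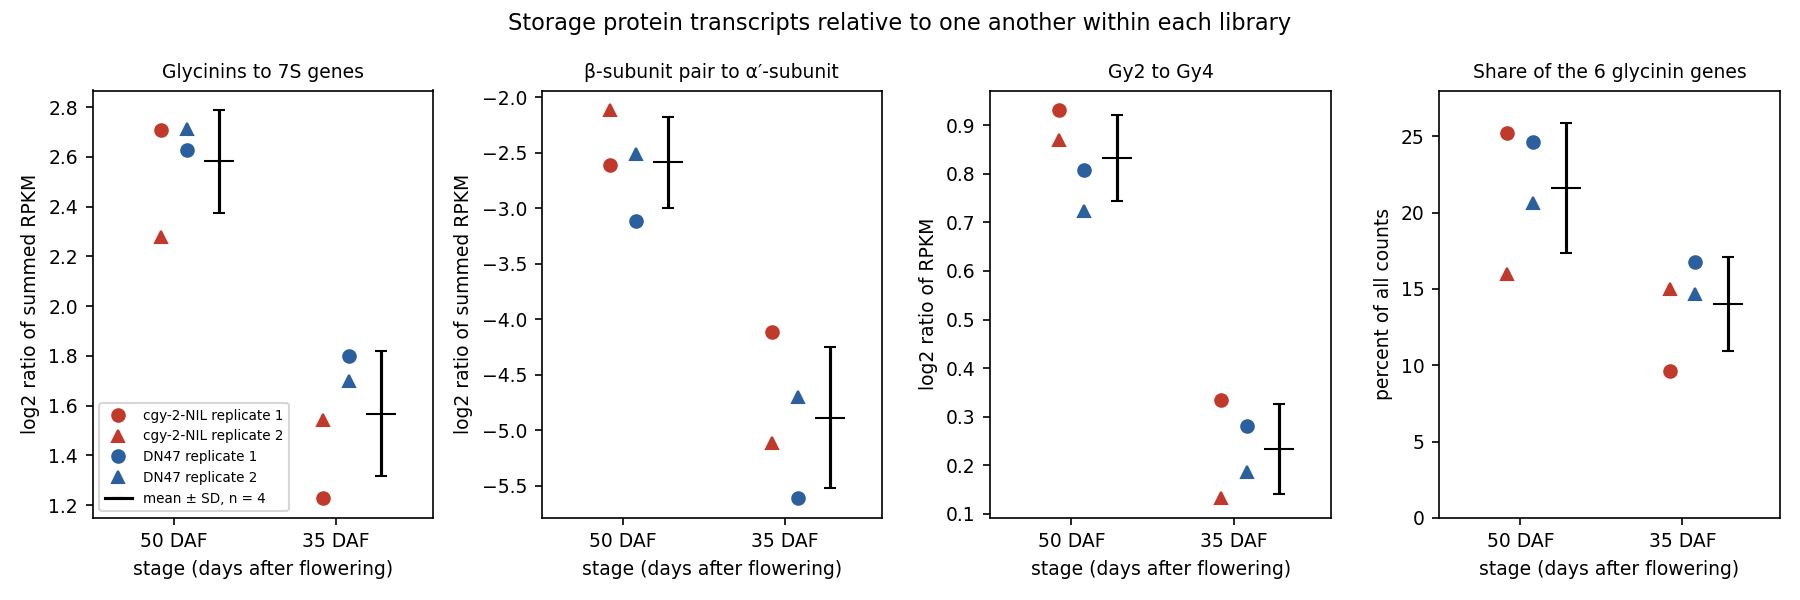
Ratios between storage protein transcripts and the share of the glycinin genes within each library, at 50 DAF on the left and 35 DAF on the right of each panel, with the mean and SD of 4 libraries as bars. The log2 ratios of glycinin to 7S transcripts lie between 2.28 and 2.71 at 50 DAF and between 1.23 and 1.80 at 35 DAF, whereas the glycinin share of replicate 2 of cgy-2-NIL at 50 DAF, 16.0%, lies within the range of 35 DAF.

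Ratios within a library do not depend on scaling between libraries, and 3 of them are described here, chosen after the levels above had been seen. The same exact test was run on them and counted among the 9 adjusted over above, but their p-values are not given. The summed RPKM of the 6 glycinin genes over that of the 8 7S genes had log2 values of 2.71 and 2.28 in cgy-2-NIL and 2.63 and 2.71 in DN47 at 50 DAF, against 1.23 and 1.54 in cgy-2-NIL and 1.80 and 1.70 in DN47 at 35 DAF. These were geometric mean ratios of 5.99 at 50 DAF and 2.96 at 35 DAF, without overlap. The summed β-subunit pair over the α′-subunit gene had log2 values of -2.61 and -2.11 in cgy-2-NIL and -3.11 and -2.51 in DN47 at 50 DAF, against -4.11 and -5.11 in cgy-2-NIL and -5.61 and -4.70 in DN47 at 35 DAF. The geometric mean ratio was 0.166 at 50 DAF and 0.0338 at 35 DAF, again without overlap. Within the glycinins, Gy2 over Gy4 had geometric mean ratios of 1.78 at 50 DAF and 1.18 at 35 DAF, also without overlap. Gy2 and Gy4 are the glycinin genes with the largest and the smallest fold change. The differences in log2 ratio stayed between 0.90 and 1.12, between 2.05 and 2.55, and between 0.57 and 0.64 when any 1 library was left out.

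Shares of all counts, also chosen after values had been seen and given without their p-values, were less clearly apart for the glycinin and cupin genes. The glycinin genes took 25.2 and 16 in cgy-2-NIL and 24.7 and 20.6 in DN47 at 50 DAF, against 9.62 and 15 in cgy-2-NIL and 16.8 and 14.7 in DN47 at 35 DAF, in percent. All 18 cupin genes together took 30.1 and 20.2 in cgy-2-NIL and 29.8 and 24.6 in DN47 at 50 DAF, against 14.9 and 21.5 in cgy-2-NIL and 22.9 and 20.4 in DN47 at 35 DAF, in percent. Both shares overlapped between the stages through replicate 2 of cgy-2-NIL at 50 DAF, the library that stood apart. The 7S genes took 4.9 and 4.17 in cgy-2-NIL and 5.1 and 3.98 in DN47 at 50 DAF, against 5.23 and 6.53 in cgy-2-NIL and 6.15 and 5.72 in DN47 at 35 DAF, in percent, without overlap between the stages. Their mean difference of -1.37 percentage points ran from -1.59 to -1.16 when 1 library was left out, and was -1.25 without the library that stood apart.

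Beside the cupins, genes that the sources used here do not annotate were among the most abundant that moved, and their annotation was not looked up elsewhere. GLYMA13G36400 and GLYMA16G33400 had the largest rise in normalised RPKM among those that did not overlap between the stages. GLYMA13G36400 had 29494 and 19519 in cgy-2-NIL and 36890.1 and 27606 in DN47 at 50 DAF, against 2978 and 6115 in cgy-2-NIL and 11627 and 9720.2 in DN47 at 35 DAF, a log2 fold change of 2.01 ± 0.29 (SE), adjusted p = 0.000502. Its mean at 50 DAF lay above those of Gy4 and Gy5. GLYMA16G33400 averaged 29555 ± 7920.4 at 50 DAF and 14181 ± 3992 at 35 DAF (SD, n = 4 each), with a log2 fold change of 1.05 ± 0.26 (SE), adjusted p = 0.00803. The largest loss in normalised RPKM among them was that of GLYMA08G45480, which had 18.7 and 3.77 in cgy-2-NIL and 6.51 and 2.08 in DN47 at 50 DAF, against 3028 and 4112 in cgy-2-NIL and 2961 and 2351 in DN47 at 35 DAF. All 4 libraries of 50 DAF had lost almost the whole signal, and the log2 fold change was -8.78 ± 0.51 (SE), adjusted p = 3.59e-05. GLYMA13G23790 fell less, to 560.2 ± 147 at 50 DAF, against 1592 ± 276 at 35 DAF (SD, n = 4 each), with a log2 fold change of -1.53 ± 0.16 (SE), adjusted p = 8.16e-05. Among the 100 genes with the highest mean normalised RPKM over the 8 libraries, 69 rose, 13 fell and 18 were not called (against 25.8% higher and 26.5% lower over all genes), and their median log2 fold change was 1.03. These genes were picked by levels that include both stages, so a gene high at only 1 stage could enter through that stage. The count rests on the TMM scaling and was not repeated with total counts alone. Of the 1131 tested gene models whose identifiers are not of the reference annotation, 380 rose and 158 fell (25.8% and 26.5% over all genes), with a median of 0.37.

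**Figure D3:**
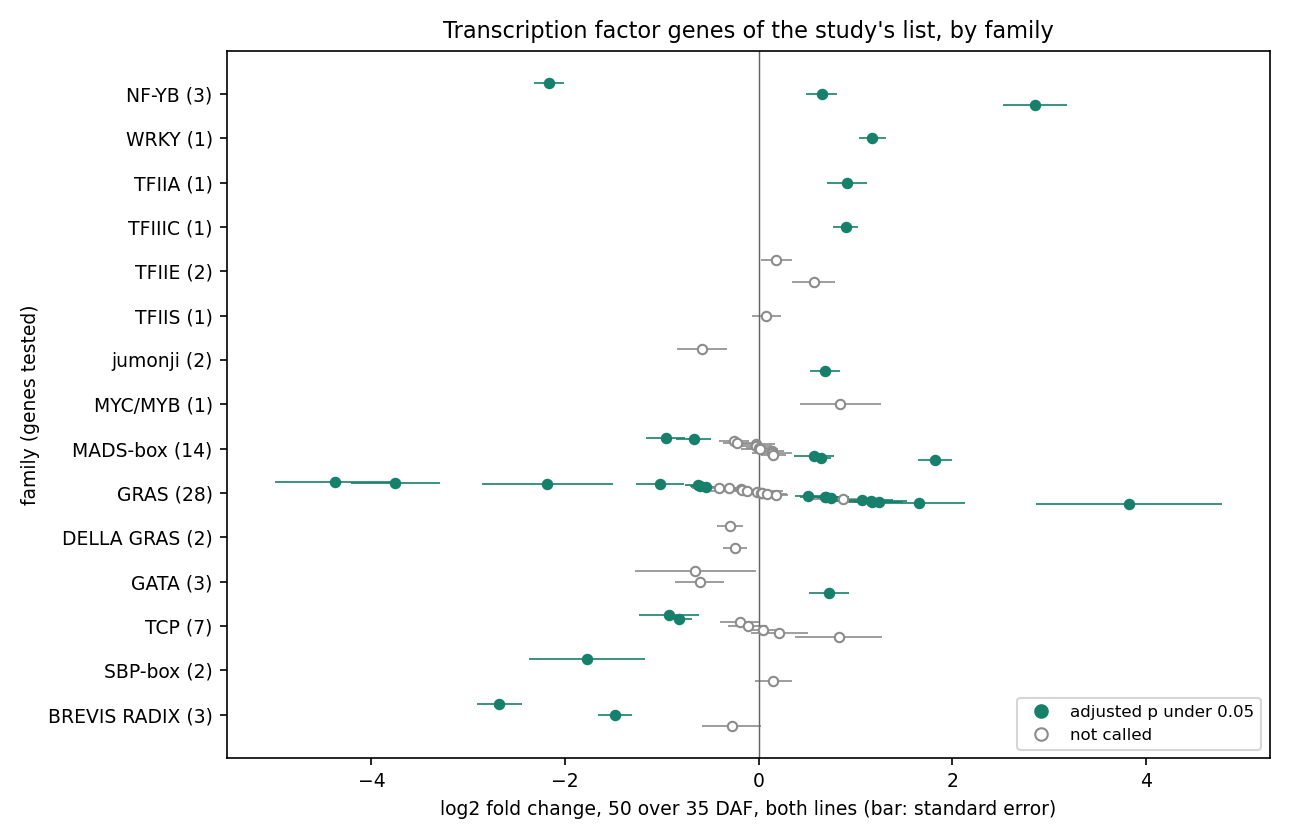
Log2 fold change at 50 over 35 DAF, with its standard error, of each tested transcription factor gene of the study's list, by family. Filled points passed the test, and they lie on both sides of 0 in the NF-YB, MADS-box and GRAS families and only below 0 in the BREVIS RADIX, TCP and SBP-box families.

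Transcription factor genes moved in both directions, and the largest changes were in the NF-YB, GRAS and BREVIS RADIX families. Of the 74 genes in the study's list 71 were tested, of which 20 rose and 15 fell (against 25.8% and 26.5% of all genes), and the median log2 fold change was 0.02. With total counts alone 5 were called higher and 28 lower. NF-YB proteins are the histone-fold subunits of the trimeric factor that binds CCAAT boxes. GLYMA17G00950, the most abundant of the 3, had normalised RPKM values of 17.9 and 10.6 in cgy-2-NIL and 20.2 and 24.3 in DN47 at 50 DAF, against 60.9 and 72.6 in cgy-2-NIL and 95.3 and 96.6 in DN47 at 35 DAF. All libraries of 50 DAF were below those of 35 DAF, with a log2 fold change of -2.17 ± 0.16 (SE), adjusted p = 1.03e-05. GLYMA09G01650 moved the other way at a low level, with 2.72 and 1.16 in cgy-2-NIL and 1.37 and 1.49 in DN47 at 50 DAF, against 0.245 and 0.265 in cgy-2-NIL and 0.207 and 0.197 in DN47 at 35 DAF, and a log2 fold change of 2.86 ± 0.33 (SE), adjusted p = 9.77e-05. The third NF-YB gene also rose.

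BREVIS RADIX proteins are plant regulators first known from root growth in Arabidopsis. Of 3 such genes 2 fell and 1 was not called, beside 25.8% higher and 26.5% lower over all genes. GLYMA09G34601 had 1.78 and 0.69 in cgy-2-NIL and 2.02 and 1.91 in DN47 at 50 DAF, against 7.68 and 6.26 in cgy-2-NIL and 13.5 and 14.3 in DN47 at 35 DAF, and its log2 fold change was -2.68 ± 0.23 (SE), adjusted p = 3.84e-05. GLYMA09G07930 averaged 1.27 ± 0.341 at 50 DAF and 3.51 ± 0.141 at 35 DAF (SD, n = 4 each), with a log2 fold change of -1.48 ± 0.18 (SE), adjusted p = 0.00013. Neither had libraries of the stages overlapping.

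The GRAS family, plant regulators that include the DELLA repressors of gibberellin signalling, was the largest in the list. Of 30 GRAS genes, the DELLA pair included, 10 rose, 7 fell and 13 were not called, and the median was 0.00, beside 25.8% higher and 26.5% lower over all genes. The steepest losses were those of GLYMA05G03490 and GLYMA17G14030. GLYMA05G03490 had 3 and 0 counts in cgy-2-NIL and 2 and 6 in DN47 at 50 DAF, against 128 and 82 in cgy-2-NIL and 73 and 57 in DN47 at 35 DAF, which is 22.2-fold fewer scaled reads (exact 95% counting interval 12.2 to 44.8), and the fitted log2 fold change was -4.37 ± 0.63 (SE), adjusted p = 0.000142. GLYMA17G14030 had 12 and 2 counts in cgy-2-NIL and 3 and 3 in DN47 at 50 DAF, against 120 and 104 in cgy-2-NIL and 71 and 89 in DN47 at 35 DAF, or 13.8-fold fewer (8.79 to 22.8), with a fitted value of -3.75 ± 0.46 (SE), adjusted p = 8.68e-05. Among the GRAS genes that rose, GLYMA09G01440 reached 2.32 ± 1.21 at 50 DAF, against 0.912 ± 0.136 at 35 DAF (SD, n = 4 each), with a log2 fold change of 1.24 ± 0.26 (SE), adjusted p = 0.00315. The DELLA pair GLYMA11G33720 and GLYMA18G04500 was not called. GLYMA18G04500 had 30.6 and 26.9 in cgy-2-NIL and 29.2 and 32.8 in DN47 at 50 DAF, against 29.6 and 40.8 in cgy-2-NIL and 36.4 and 34.6 in DN47 at 35 DAF (log2 fold change -0.24 ± 0.12 (SE), adjusted p = 0.129), and GLYMA11G33720 had a log2 fold change of -0.30 ± 0.13 (SE), adjusted p = 0.087. Values are given for these 2 genes because of their role, although no rule picked them. The calls of 6 GRAS genes that rose (GLYMA06G41500, GLYMA09G04110, GLYMA10G37640, GLYMA12G02060, GLYMA15G12320 and GLYMA20G30150) were lost with total counts alone.

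MADS-box genes, whose products are best known for specifying floral organs, numbered 14 in the list. Of these 3 rose, 2 fell and 9 were not called, with a median of 0.00, beside 25.8% higher and 26.5% lower over all genes. GLYMA05G07286 rose most, with 4.49 and 4.19 in cgy-2-NIL and 3.47 and 4.64 in DN47 at 50 DAF, against 1.12 and 1.02 in cgy-2-NIL and 1.19 and 1.44 in DN47 at 35 DAF, and a log2 fold change of 1.82 ± 0.18 (SE), adjusted p = 4.28e-05. GLYMA19G04320, an abundant member, averaged 46.4 ± 2.34 at 50 DAF and 29.6 ± 2.98 at 35 DAF (SD, n = 4 each), a log2 fold change of 0.65 ± 0.10 (SE), adjusted p = 0.000463. That call was lost with total counts alone (0.20, adjusted p = 0.238). The only WRKY gene of the list, from a family known for stress responses, was GLYMA19G40560. It had 4.46 and 4.13 in cgy-2-NIL and 6.37 and 7.62 in DN47 at 50 DAF, against 2.16 and 2.26 in cgy-2-NIL and 2.61 and 2.74 in DN47 at 35 DAF, and its log2 fold change was 1.17 ± 0.14 (SE), adjusted p = 0.00014. Of 5 tested genes for general transcription factors 2 rose, TFIIA (GLYMA11G14450, which helps the TATA-binding protein) at 0.91 ± 0.20 (SE), adjusted p = 0.0054, and TFIIIC (GLYMA14G24776, of the RNA polymerase III machinery) at 0.90 ± 0.13 (SE), adjusted p = 0.000401, on the log2 scale. Both missed the threshold with total counts alone (adjusted p = 0.0543 and 0.0514).

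Among the genes annotated in the study's tables that rose without overlap, the largest fold change was that of GLYMA06G02690, which the study annotates as a gibberellin-regulated protein, a family of small cysteine-rich peptides. It had 33.4 and 13.9 in cgy-2-NIL and 73.1 and 37 in DN47 at 50 DAF, against 0.256 and 0.941 in cgy-2-NIL and 0 and 0.13 in DN47 at 35 DAF. All 4 libraries of 50 DAF were far above those of 35 DAF, where 1 DN47 library held no read. Scaled and summed reads were 101-fold higher at 50 DAF (exact 95% counting interval 67.5 to 158), and the fitted log2 fold change was 6.62 ± 0.90 (SE), adjusted p = 0.000226. Within the lines the fitted changes were 5.30 in cgy-2-NIL and 9.52 in DN47, and the difference was not called (adjusted p = 0.285). Of the 17 genes that the study listed for differing between the lines at every stage, 1 rose and 4 fell, beside 25.8% and 26.5% of all genes. GLYMA15G06160, with the catalytic domain of a pseudouridine synthase, an enzyme that modifies uridine in RNA, had 17 and 8.22 in cgy-2-NIL and 30.0 and 28.6 in DN47 at 50 DAF, against 31.1 and 37.7 in cgy-2-NIL and 55.8 and 52.1 in DN47 at 35 DAF, and a log2 fold change of -1.17 ± 0.22 (SE), adjusted p = 0.00201. The basic helix-loop-helix gene GLYMA11G18290 averaged 3.36 ± 1.55 at 50 DAF and 6.4 ± 1.48 at 35 DAF (SD, n = 4 each) and fell by 1.02 on the log2 scale (adjusted p = 0.000294).

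**Figure D4:**
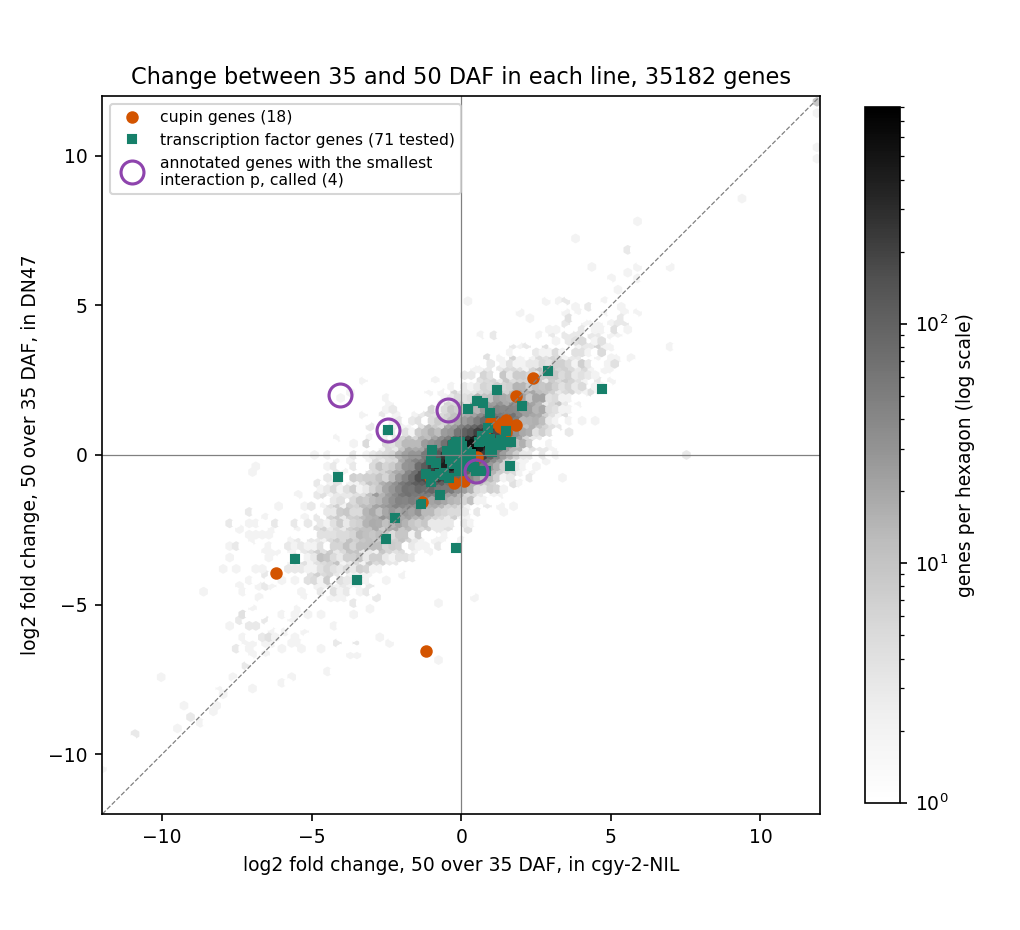
Log2 fold change at 50 over 35 DAF in cgy-2-NIL (horizontal) and in DN47 (vertical) for 35182 genes, shaded by the number of genes, with values beyond 12 drawn at the edge. Cupin genes are orange points, transcription factor genes green squares, and 4 annotated genes whose change differed between the lines are circled, of which 3 lie above and 1 below the dashed line of equal change.

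Fitted within each line, the change called 9350 genes higher (26.6%) and 9208 lower (26.2%) in cgy-2-NIL, and 5619 higher (16%) and 6303 lower (17.9%) in DN47. Of the 11922 genes called in DN47, 94.7% had the same sign in cgy-2-NIL, and of the 18558 called in cgy-2-NIL, 90.5% had the same sign in DN47. Over all 35182 genes tested, called or not, 78.5% had the same sign. Genes called in both numbered 9678, of which 9527 had the same sign. The difference in the number of calls was not tested, and without 1 library the count ran from 13121 to 20229 in cgy-2-NIL and from 5656 to 15338 in DN47. The lowest DN47 counts were those without a DN47 library: 5656 and 6309 without replicate 1 and 2 at 35 DAF, and 6464 and 6676 without replicate 1 and 2 at 50 DAF.

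The test of the difference itself, the interaction of line and stage, called 430 genes (1.22%), 188 (0.534%) with a more positive and 242 (0.688%) with a more negative change in cgy-2-NIL, and 7250 genes had an unadjusted p below 0.05. This count was unstable. It was 970 with the DESeq2 Wald test, 268 with limma-voom and 3362 in the fit to all 20 libraries, and leaving out 1 library gave 0 (without replicate 1 of DN47 at 35 DAF or replicate 2 of DN47 at 50 DAF) to 5563 (without replicate 1 of cgy-2-NIL at 50 DAF), with 1501 without the library that stood apart, 1 without either cgy-2-NIL library of 35 DAF, 8 without replicate 1 of DN47 at 50 DAF and 135 without replicate 2 of DN47 at 35 DAF. None of the 18 cupin genes was called in it, at the smallest adjusted p of 0.0846, and 2 of the 71 transcription factors were, as were 4 of the 17 genes listed for differing between the lines, a choice made on these libraries.

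Among annotated genes the smallest interaction p belonged to a haem peroxidase gene, of a class of enzymes that oxidise substrates with hydrogen peroxide. It is the gene that had been planned as a seed coat marker, and whether its values reflect the seed coat was not tested. This gene, GLYMA09G02600, had normalised RPKM values of 4.61 and 3.35 in cgy-2-NIL and 27.3 and 30.5 in DN47 at 50 DAF, against 4.41 and 6.28 in cgy-2-NIL and 10.1 and 10.1 in DN47 at 35 DAF. The DN47 libraries of 50 DAF lay above those of 35 DAF while those of cgy-2-NIL overlapped, with log2 fold changes of -0.43 in cgy-2-NIL (adjusted p = 0.101) and 1.51 in DN47 (adjusted p = 0.000585) and an interaction of -1.95 ± 0.28 (SE), adjusted p = 0.0287. An EF-hand calcium-binding gene, GLYMA11G25660, had 4 and 0 counts in cgy-2-NIL and 26 and 42 in DN47 at 50 DAF, against 54 and 44 in cgy-2-NIL and 8 and 16 in DN47 at 35 DAF. Its reads lay lower at 50 DAF in cgy-2-NIL and higher in DN47, without overlap in either line, with an interaction of -6.08 ± 1.09 (SE), adjusted p = 0.0307. GLYMA04G01090, of the GATA zinc-finger family, had 0.239 and 0.516 in cgy-2-NIL and 2.41 and 2.06 in DN47 at 50 DAF, against 2.08 and 2.19 in cgy-2-NIL and 0.715 and 1.79 in DN47 at 35 DAF and an interaction of -3.26 ± 0.65 (SE), adjusted p = 0.0489. The GRAS gene GLYMA03G03760 had 3.97 and 3.5 in cgy-2-NIL and 3.32 and 3.37 in DN47 at 50 DAF, against 2.64 and 2.68 in cgy-2-NIL and 5.14 and 4.57 in DN47 at 35 DAF, with an interaction of 1.02 ± 0.19 (SE), adjusted p = 0.043. This call was lost with upper-quartile scaling (adjusted p = 0.054), total counts alone (0.126), DESeq2 (0.0597) and limma-voom (0.0532), and that of GLYMA04G01090 with limma-voom (0.0597). The fifth in this order, GLYMA20G16100 with a development and cell death domain, was not called in the interaction (-2.09 ± 0.40 (SE), adjusted p = 0.0552).

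**Figure D5:**
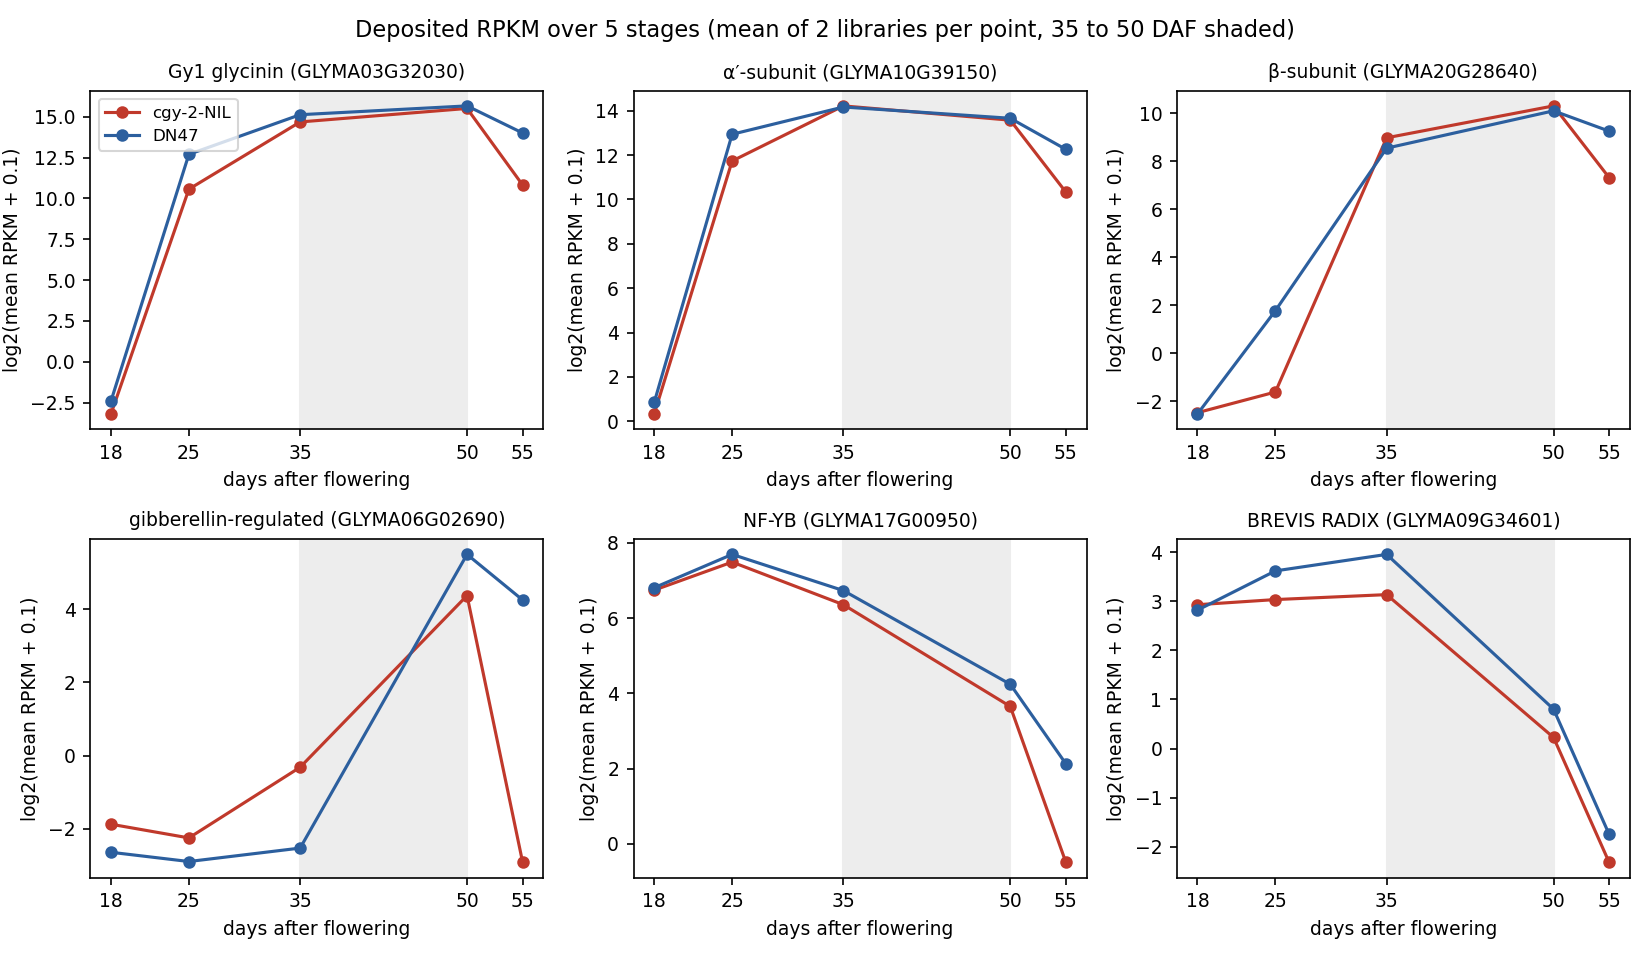
Deposited RPKM, as log2 of the mean of 2 libraries plus 0.1, of 6 genes over the 5 stages (18 to 55 DAF) in cgy-2-NIL (red) and DN47 (blue), with the interval from 35 to 50 DAF shaded. The glycinin gene Gy1 and the β-subunit gene are highest at 50 DAF, the α′-subunit gene at 35 DAF, and the NF-YB and BREVIS RADIX genes fall steeply over the shaded interval.

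The other stages place these changes in the course of filling, here in deposited RPKM, which are not scaled between libraries, and with no test. Values are means of 4 libraries, listed in the order 18, 25, 35, then 50 and 55 DAF. Gy1 averaged 0.0489, 4094, 31125, 49454 and 9154, with its peak at 50 DAF. At 55 DAF it averaged 1809 in cgy-2-NIL and 16499 in DN47. The β-subunit gene GLYMA20G28640 averaged 0.0753, 1.76, 436, 1175 and 382 and also peaked at 50 DAF. By contrast the α′-subunit gene averaged 1.44, 5615, 18681, 12536 and 3084, with its highest mean at 35 DAF. GLYMA06G02690 averaged 0.117, 0.0727, 0.388, 32.8 and 9.47, and at 55 DAF it averaged 0.0324 in cgy-2-NIL and 18.9 in DN47.

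The genes that fell followed other courses. NF-YB gene GLYMA17G00950 averaged 109, 193, 93.9, 15.6 and 2.44, and was past its highest mean by 35 DAF. BREVIS RADIX gene GLYMA09G34601 averaged 7.23, 10.1, 12, 1.36 and 0.15. The 2 GRAS genes with the steepest losses had been highest at 18 DAF, at 18.4 for GLYMA05G03490 and 21.8 for GLYMA17G14030, and averaged 1.1 and 1.33 at 35 DAF. GLYMA08G45480 averaged 58.3, 2977, 3638, 6.59 and 0.425 in the same order of stages.

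In 1 fit to all 20 libraries, in which 40721 genes were tested, the 15 days between 35 and 50 DAF called 10834 genes higher and 12773 lower (58%). The 7 days between 18 and 25 DAF called 48.9%, the 10 days between 25 and 35 DAF 51.1%, and the 5 days between 50 and 55 DAF 65.3%. Neighbouring intervals share libraries, the intervals differ in length, and the counts were not tested against each other. Of all genes, 49 had at least 20 counts in every library of 50 DAF and at most 3 in every library of 35 DAF, 12 of them models with identifiers outside the reference annotation, and 219 had at most 3 in every library of 50 DAF and at least 20 in every library of 35 DAF, 5 of them with such identifiers.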

How the data were processed

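RNA was measured by paired-end sequencing of whole seeds of cgy-2-NIL and DN47. The authors deposited read counts per gene, made with HTSeq (0.6.1) on an Ensembl Plants annotation, and RPKM derived from them; the aligner settings, the strand and the treatment of reads shared by similar genes are not given in the sources used here. The deposited counts of the 8 libraries were filtered by filterByExpr, scaled by TMM and fitted with edgeR (4.0.16, R 4.3.3) under a quasi-likelihood model of line plus stage, and as 4 group means for each line and the interaction. DESeq2 (1.42.0) and limma-voom (3.58.1) were alternatives. Measures of how concentrated the counts were, and the shares and ratios of storage protein genes, were all chosen after values had been seen. They were tested by two-sided exact permutation over the 8 libraries, without regard to line. Only the p-values of the measures of concentration are given. Counting intervals used scipy (1.17.1). Deposited RPKM were rescaled by the effective library sizes. The p-values measure the spread between these pooled seed samples. Named were all cupin genes; the 10 annotated genes per direction with the largest fold change or RPKM difference among those called, with at least 20 counts on average and without overlap; the 5 annotated genes with the smallest interaction p; called genes of the study's other tables at 1 RPKM or more without overlap; and 2 genes without annotation per direction. Members and lists were chosen with earlier results of these data known. None of the identifiers matched the RefSeq table, so no coordinates or sequences are given.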

Additional observations from a re-analysis of the deposited data

Results flagged for a closer look

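Between 50 and 35 DAF, 4 annotated genes changed differently in cgy-2-NIL and DN47 by the interaction test (edgeR's quasi-likelihood test, Benjamini-Hochberg adjustment over all genes), each value being the log2 fold change in cgy-2-NIL minus that in DN47. The study had listed all 4 for differing between the lines in these same libraries, so they were not chosen independently of the data. The haem peroxidase gene GLYMA09G02600 differed by -1.95, the EF-hand gene GLYMA11G25660 by -6.08, on 0 to 54 counts a library, the GATA gene GLYMA04G01090 by -3.26 and the GRAS gene GLYMA03G03760 by 1.02. Without 1 library the differences kept their sign, between -2.22 and -1.72, between -10.29 and -4.94, between -4.11 and -2.80, and between 0.89 and 1.11. The calls of GLYMA09G02600, GLYMA11G25660 and GLYMA03G03760 were lost without either library of cgy-2-NIL at 35 DAF and without any of the 4 DN47 libraries (adjusted p up to 0.163, 0.166 and 0.199), and that of GLYMA04G01090 without the same libraries except replicate 2 of DN47 at 35 DAF (adjusted p up to 0.188).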

How the results depend on the processing

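The counts over both lines kept within 1.5 times of 9090 higher and 9315 lower under DESeq2 and upper-quartile scaling, TMM without cupin genes, both other filters, DESeq2, limma-voom and the 20-library fit. Total counts alone gave 3648 higher and 16107 lower, an adjusted p under 0.01 gave 6004 higher and 6710 lower, and an absolute log2 fold change above 1 or above 2 gave 3708 and 5163, or 1265 and 2336. Without 1 library the counts ran from 7234 to 8752 higher and from 8341 to 9150 lower, from 13121 to 20229 in cgy-2-NIL, from 5656 to 15338 in DN47 and from 0 to 5563 for the interaction. The interaction called 970 genes with DESeq2, 3362 with 20 libraries, 268 with limma-voom, 868 with no filter on low counts and 271 with total counts alone, against 430. Values that were not called changed sign for GLYMA02G16440 with total counts alone (-0.23) and, without 1 library, for GLYMA10G03390 (-0.15 to 0.070), GLYMA11G25660 (-1.35 to 0.48) and GLYMA03G03760 (-0.15 to 0.10). The causes were not tested.

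With the replicate number as a block, 8577 genes were higher and 8932 lower, 18180 were called in cgy-2-NIL, 11381 in DN47 and 277 in the interaction. Among the genes named, the block ended the calls of GLYMA01G08130, GLYMA09G04110 and Gy4 over both lines and the interaction calls of GLYMA03G03760 and GLYMA04G01090, and no other. Deviations of libraries with the same number correlated between -0.04 and 0.11 across pairs of groups, so the numbers were not taken as pairs. Depth limits the genes with a few counts at 50 DAF. Calls lost without single libraries also included MADS-box gene GLYMA01G08130 (any cgy-2-NIL library) and GRAS genes GLYMA06G41500 (4 libraries), GLYMA09G04110 (6), GLYMA10G37640 and GLYMA20G30150 (3 each). Over both lines the α-subunit gene GLYMA20G28650 was called lower without replicate 1 of cgy-2-NIL at 50 DAF (adjusted p = 0.019) and with total counts alone (adjusted p = 0.00953), and GLYMA20G16100 without replicate 1 of DN47 at 35 DAF or replicate 2 at 50 DAF (adjusted p = 0.0217 and 0.0361).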
